A study of Drosophila melanogaster with 9 samples.

Results

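Open chromatin of S2R+ cells held at 25 °C, the standard culture temperature of Drosophila cells, was described from the counts of ATAC-Seq reads in 17175 of 17175 consensus peaks. Peaks were ranked by density, the CPM (the count scaled to a fixed library total over all peaks) per kb of peak, averaged over the 3 libraries at 25 °C of 9 libraries in all. All consensus peaks were ranked, so the choice of members used no threshold, and libraries from other temperatures were not compared. S2R+ is an adherent isolate of the Schneider 2 line, derived from Drosophila melanogaster embryos and most like hemocytes, the blood cells of the fly. The labels give no genotype and no treatment other than temperature. The cells grew for 36 h at 25 °C and then for another 24 h at 25 °C, and 75000 cells per reaction were lysed and tagmented for 30 min at 25 °C. The study as a whole asked how DNA accessibility responds to cool and warm culture, with 14 °C and 29 °C beside 25 °C and 3 libraries each. Replicates came from separate dishes of 1 cell line prepared side by side, so their spread is that of parallel cultures.

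In ATAC-Seq the Tn5 transposase inserts sequencing adaptors into DNA that nucleosomes leave exposed, and the number of fragments from a site therefore follows how accessible it is. Active promoters are kept free of nucleosomes around the transcription start site, and enhancers, which lie in introns or between genes, are opened by transcription factors. In flies the GAGA factor Trithorax-like (Trl), which binds GAGAG repeats, and the GATA factor Serpent of the blood lineage are among the factors known to act on open sites. No input DNA was used here, so a site present in more DNA copies and a site that is more accessible cannot be told apart.

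The central 251 bp of 9 peaks are given first, 7 from the most open end of the ranking and the last 2 from the least open end. They stand for the most open site of all, for peaks at the starts of genes to which the results return and for sites near the floor. A TSS peak overlapped the 500 bp on either side of an annotated transcription start site (TSS), so its center need not hold the start itself. The letters are those of the plus strand of the RefSeq copy of Release 6 (dm6), with the build's coordinates. Capitals mark any match, on either strand, to the sites searched: GAGAG for the GAGA factor, TATCGATA for DREF, TGATAAG for GATA factors such as Serpent, TGANTCA for AP-1, CCGGAAGT for ETS factors, TTCNNNGAA for the STAT factor, TGTGGTT for Runx factors, CAGGTAG for Zelda, CACGTG for Myc, CAGCTG for other basic helix-loop-helix factors, GGTCACACT for M1BP, TATAAA for the TATA box, AGGTCA for nuclear receptors and TTTCGCGC for E2F.
pnt intron (chr3R:23326575-23326825): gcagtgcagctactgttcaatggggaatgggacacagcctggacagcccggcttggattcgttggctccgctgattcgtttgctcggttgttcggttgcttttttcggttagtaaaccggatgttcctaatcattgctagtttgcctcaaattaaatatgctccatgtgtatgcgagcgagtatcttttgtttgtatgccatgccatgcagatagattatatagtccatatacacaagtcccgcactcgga
CR43334 TSS peak (chr3L:628240-628490): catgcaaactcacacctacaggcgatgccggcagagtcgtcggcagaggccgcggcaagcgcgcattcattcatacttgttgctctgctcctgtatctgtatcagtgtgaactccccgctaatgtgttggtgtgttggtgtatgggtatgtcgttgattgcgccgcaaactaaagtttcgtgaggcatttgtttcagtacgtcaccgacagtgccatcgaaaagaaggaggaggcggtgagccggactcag
E(spl)mbeta-HLH and CR45039 TSS peak (chr3R:26006448-26006698): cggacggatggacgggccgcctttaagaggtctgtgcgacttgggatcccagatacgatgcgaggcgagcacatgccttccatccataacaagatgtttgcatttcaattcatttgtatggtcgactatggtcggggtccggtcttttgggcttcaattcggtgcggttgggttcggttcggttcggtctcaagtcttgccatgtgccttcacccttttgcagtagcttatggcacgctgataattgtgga
RhoGAP18B TSS peak (chrX:19153618-19153868): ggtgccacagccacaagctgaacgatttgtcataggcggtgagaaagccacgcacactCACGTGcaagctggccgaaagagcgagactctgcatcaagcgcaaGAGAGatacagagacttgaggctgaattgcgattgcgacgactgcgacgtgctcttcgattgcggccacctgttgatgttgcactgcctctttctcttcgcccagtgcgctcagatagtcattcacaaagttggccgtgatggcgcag
ush TSS peak (chr2L:523560-523810): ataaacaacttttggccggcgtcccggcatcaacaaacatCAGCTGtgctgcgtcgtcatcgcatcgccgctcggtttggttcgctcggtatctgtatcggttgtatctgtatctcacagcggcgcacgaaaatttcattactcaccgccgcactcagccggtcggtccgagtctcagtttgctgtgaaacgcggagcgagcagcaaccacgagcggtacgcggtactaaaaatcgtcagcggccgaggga
zfh1 TSS peak (chr3R:30765632-30765882): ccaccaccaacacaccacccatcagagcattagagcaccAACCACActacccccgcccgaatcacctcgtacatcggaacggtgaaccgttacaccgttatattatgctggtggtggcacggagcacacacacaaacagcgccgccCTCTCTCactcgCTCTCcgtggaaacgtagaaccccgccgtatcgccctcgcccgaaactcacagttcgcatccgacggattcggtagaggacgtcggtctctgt
kay TSS peak (chr3R:29772713-29772963): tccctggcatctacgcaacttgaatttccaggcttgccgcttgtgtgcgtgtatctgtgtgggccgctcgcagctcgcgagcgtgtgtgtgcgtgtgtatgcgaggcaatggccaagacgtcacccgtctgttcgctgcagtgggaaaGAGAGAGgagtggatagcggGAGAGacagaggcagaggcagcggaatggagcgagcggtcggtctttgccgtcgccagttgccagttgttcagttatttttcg
l(3)80Fg intron (chr3L:25903496-25903746): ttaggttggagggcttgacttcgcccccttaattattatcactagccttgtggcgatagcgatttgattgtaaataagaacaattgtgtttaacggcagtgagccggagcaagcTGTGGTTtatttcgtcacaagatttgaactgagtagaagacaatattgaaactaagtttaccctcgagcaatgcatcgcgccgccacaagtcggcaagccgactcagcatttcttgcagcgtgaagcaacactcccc
His3 and His4 TSS peak (chr2L:21425001-21425251): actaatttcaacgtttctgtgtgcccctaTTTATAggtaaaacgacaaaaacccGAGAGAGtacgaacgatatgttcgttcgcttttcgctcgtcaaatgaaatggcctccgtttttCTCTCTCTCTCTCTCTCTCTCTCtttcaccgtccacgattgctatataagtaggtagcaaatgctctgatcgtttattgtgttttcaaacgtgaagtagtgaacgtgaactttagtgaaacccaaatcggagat

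Of these 9 windows, those of the pnt intron, the CR43334 peak and the peak of E(spl)mbeta-HLH and CR45039 held none of the 14 searched sites, which says only that these letters were not in the windows. The kay and zfh1 peaks held 3 GAGAG each and the RhoGAP18B peak held 1. The His3 and His4 peak, 9 places above the lowest rank, held 12 overlapping GAGAG and 1 TATAAA. Among the 15999 windows of this length at peaks of the standard width, GAGAG stood in 37.0%, CAGCTG in 16.7%, TATAAA in 18.8%, TGTGGTT in 3.89% and CACGTG in 3.76%.

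The libraries held 6563700, 6046528 and 7456082 counts in peaks for replicates 1, 2 and 3, with a median of 275, 235 and 262 counts per peak. At that median, counting alone gives an error of 6.03%, 6.52% and 6.18%. The spread of the densities was not the same in the 3 libraries. The SD of the log2 densities was 0.88, 0.93 and 1.14 for replicates 1, 2 and 3, and the median density was 80.1, 73.8 and 65.8, so that replicate 3 had more of its counts in strong peaks and fewer in weak ones. Pearson's r of the log2 densities over the 17175 peaks was 0.954 for replicates 1 and 2, 0.934 for replicates 2 and 3, and 0.861 for replicates 1 and 3. These r values are across peaks, which share their libraries and are not independent replicates.

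Accessibility ranged widely among the consensus peaks, and a small part of them held a large part of the counts. The mean density ran from 7.62 to 5183, a 680-fold range, with a median of 72.3 and quartiles of 53.2 and 118.8. Above 500 stood 288 peaks, above 1000 stood 54, and above 2000 stood 11. The most open 10%, 1718 peaks, had densities of 207.0 or more, and the first peak outside had 206.9. They took 31.5%, 34.0% and 37.5% of the counts in replicates 1, 2 and 3 (34.3% ± 2.98, SD, n = 3). The least open 10% had densities up to 43.0.

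**Figure D1:**
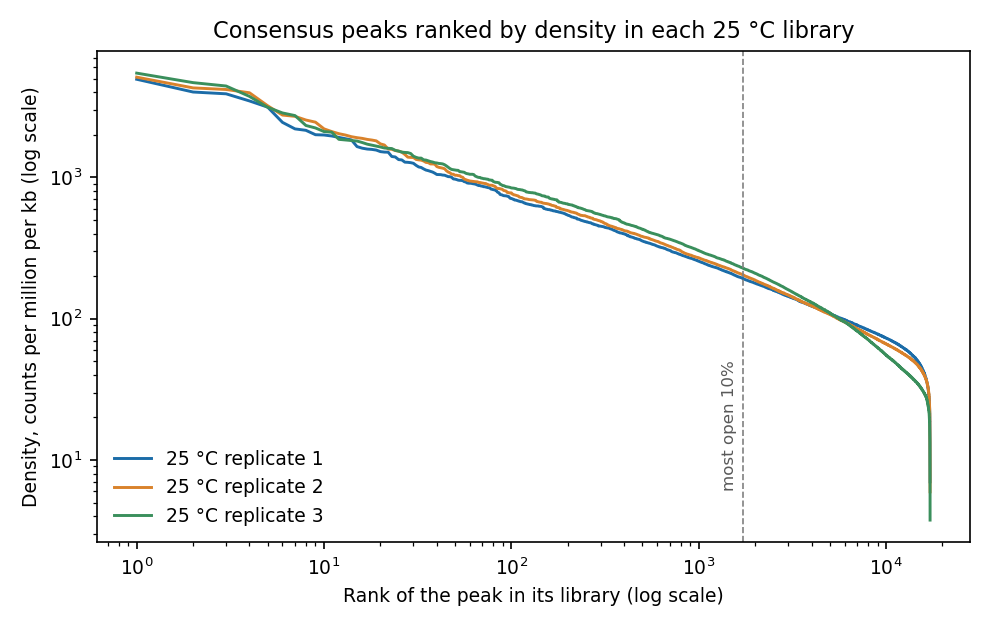
Density of each consensus peak in CPM per kb (log axis) against the rank of the peak in its own library (log axis), with 1 line for each of the 3 libraries at 25 °C and a dashed line at the limit of the most open 10%. The lines start at 4951, 5124 and 5473 and cross near the middle of the ranking, replicate 3 being above the others among strong peaks and below them among weak ones.

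The top of the ranking was stable among the libraries and the bottom was not. Of the most open 100 peaks of each library, 85 were shared by all 3 libraries, and of the most open 1718, 1445 (84.1%) were shared. Of the least open 1718, 468 (27.2%) were shared. The 10 most open peaks held 5601 to 20403 counts per library and the 10 least open peaks held 14 to 55. The parts of depth and of the libraries' different spread in this were not tested.

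The most open peak of all lay in an intron of pnt (pointed, FBgn0003118), which encodes an ETS-domain activator downstream of the EGF receptor and the MAP kinase pathway. Its density was 4951, 5124 and 5473 in replicates 1, 2 and 3 (5183 ± 266, SD, n = 3), and it ranked first in each library. It is 71.7-fold above the median of all peaks. The peak spans chr3R:23326450-23326950, 7103 bp from the closest annotated start, that of a noncoding RNA.

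The next places were held by regulators of development and by the primary transcript of a microRNA. An intron of luna (FBgn0040765), which encodes a Krüppel-like zinc finger factor, had 3906, 4191 and 4687 in replicates 1, 2 and 3. The start of ap (apterous, FBgn0267978), the LIM-homeodomain factor that sets dorsal identity in the wing, had 4022, 4302 and 4436. The start of the long noncoding RNA CR43334 (FBgn0286827), whose transcript holds the hairpin of the growth-promoting microRNA bantam, had 3145, 3973 and 3745. In each library the pnt peak lay above all 3, and the luna and ap peaks each lay above the CR43334 peak. The order of the luna and ap peaks differed between libraries.

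The fifth peak, with 3477, 3216 and 3135, lay in an intron of Myo81F, a myosin heavy chain gene that spans 1966 kb of chromosome 3R next to the centromere, and 222443 bp from any annotated start. Places 6 and 7 were exons of CR43334, with 2452, 2549 and 2860 at the one and 2205, 2705 and 2739 at the other. Only 2 of the most open 10 peaks were at a TSS.

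Places 8 and 10 lay on chromosome X beyond 23 Mb, in the region of the ribosomal RNA genes, and their libraries agreed less. The peak at place 8 had 1883, 2763 and 1809 in replicates 1, 2 and 3, and that at place 10 had 2155, 2461 and 1502. Replicate 2 was highest at both. The start of pre-rRNA:CR45856, the precursor of the ribosomal RNAs, had 1279, 1911 and 1332, again highest in replicate 2. These genes exist in many near-identical copies and only uniquely mapped reads were kept, so their values are uncertain. Of the 89 peaks on X beyond 23 Mb, 19 were in the most open 10% and 30 in the least open 10%, and 8 were in the most open 100. Of the 5 peaks with the highest CV among the most open 10%, 3 lay near ribosomal RNA or mir-10404 genes of X, the widest with 381.5, 936 and 748 (CV 41.0%).

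Promoters made up a larger share of open peaks than of all peaks, but the share was highest below the most open 10% and low at the extreme top. A peak was counted at a TSS where any part of it lay within 500 bp of an annotated start, which held for 7919 of 17175 peaks (46.1%). Of the most open 10%, 905 were at a TSS (52.7%). The share was 50.6%, 52.5% and 53.0% when replicates 1, 2 and 3 were each ranked alone (52.0% ± 1.29, SD, n = 3). Steps 2, 3 and 4 of 10 of the ranking held more, with 58.8%, 57.6% and 57.3% of their peaks at a TSS. Of the most open 300 peaks 115 were at a TSS, of the most open 100 it was 34, and of the most open 50 it was 14. Introns held 19 of the most open 50, 40 of the most open 100 and 566 (32.9%) of the most open 1718, against 27.5% of all peaks.

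The median density of TSS peaks was 84.7, 84.3 and 85.6 in replicates 1, 2 and 3, and that of all other peaks was 77.1, 66.8 and 51.5. The medians of TSS peaks were thus nearly alike in the 3 libraries, whereas that of the other peaks was highest in replicate 1 and lowest in replicate 3. The ratio of the medians was 1.10, 1.26 and 1.66, above 1 in 3 of 3 libraries, and 1.31 on the mean densities. An exact sign-flip permutation test over the libraries (2-sided) gave p = 0.25, which is the smallest that 3 libraries allow. The variation of single peaks differed in the same way, with a median CV over the libraries of 12.5% at a TSS and 19.6% elsewhere.

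**Figure D2:**
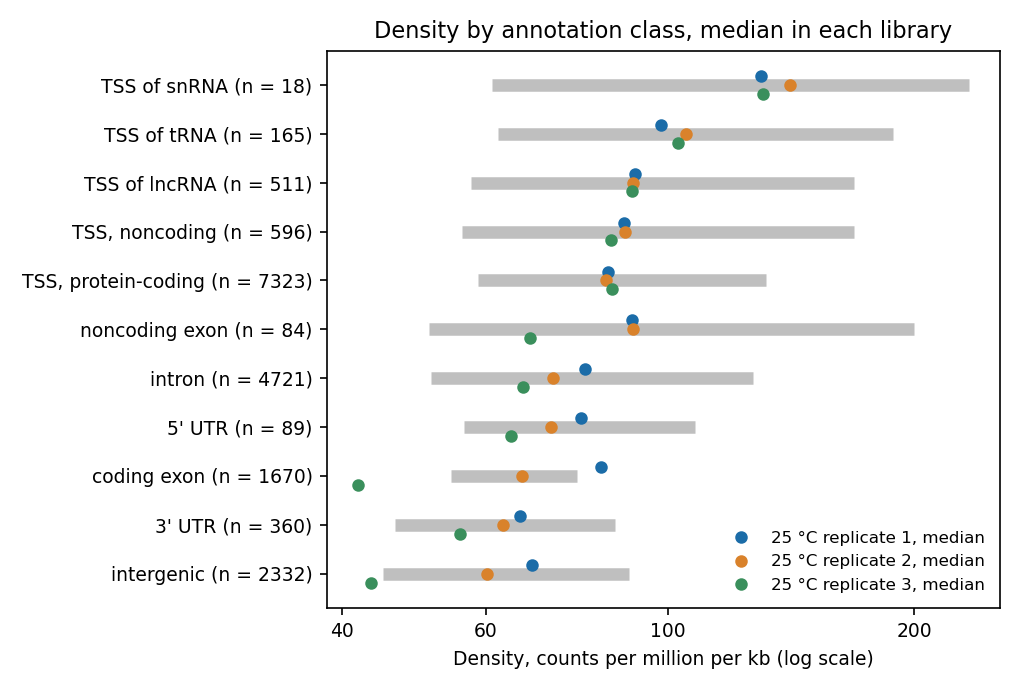
Median density in CPM per kb (log axis) of each annotation class, with a dot for each of the 3 libraries at 25 °C and a gray bar for the quartiles of the mean densities of its peaks. The dots of protein-coding TSS peaks lie between 84.0 and 85.6, while those of coding exons lie between 41.8 and 82.9, with replicate 3 lowest.

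Starts of noncoding RNAs were more often very open than starts of protein-coding genes. Of 596 peaks at noncoding starts only, 20.6% were in the most open 10%, and of 7323 peaks at a protein-coding start, 10.7% were. Both had similar medians, with 88.5, 88.8 and 85.2 at noncoding starts against 84.6, 84.0 and 85.6 at protein-coding starts, so the difference lay in the upper tail. Among the highest noncoding starts, besides those of CR43334 and pre-rRNA, were CR46036, which overlaps osa, a gene for a subunit of a SWI/SNF chromatin remodeler, with 1610, 1858 and 2089, and 7SKa, the small nuclear RNA that holds back the elongation factor P-TEFb, with 1117, 1277 and 1252.

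Among starts of small RNAs, those of tRNA genes, which RNA polymerase III transcribes, had medians of 98.1, 105.2 and 103.0 over 165 peaks, and 21.2% were in the most open 10%. The 18 peaks at small nuclear RNA genes had medians of 130.0, 140.9 and 130.8. Peaks at 77 snoRNA and 70 microRNA genes had medians of 92.9, 91.9 and 91.2 and of 96.3, 106.0 and 104.5. For snoRNAs and microRNAs the annotated start is that of the processed RNA, often inside a host gene. All 4 kinds had medians above that of all peaks in each library.

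The most open protein-coding starts after ap were those of HmgZ, E(spl)mbeta-HLH and RhoGAP18B. HmgZ, which encodes an HMG-box chromatin protein, had 1509, 1727 and 1719 at one start and 1337, 1386 and 1609 at another. The peak of E(spl)mbeta-HLH, a basic helix-loop-helix repressor and target of Notch, had 1579, 1581 and 1766, and its center lay closer to the start of the noncoding RNA CR45039, at 500 bp. RhoGAP18B, a GTPase-activating protein, had 1511, 1696 and 1692. The ranges of these starts overlapped, and each lay below that of ap in every library.

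Intronic peaks were more open than intergenic peaks. Their median was 79.2, 72.4 and 66.5 in replicates 1, 2 and 3 over 4721 peaks, against 68.3, 60.2 and 43.5 over 2332 intergenic peaks. The ratio was 1.16, 1.20 and 1.53, above 1 in 3 of 3 libraries (1.27 on the mean densities; p = 0.25 by the same exact permutation test over libraries, its minimum). In the most open 10% were 11.99% of the intronic and 7.98% of the intergenic peaks, and in the least open 10% were 11.2% and 21.1%.

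Within introns, the median was higher for peaks in the first intron of a protein-coding gene than for those in later introns. The most open intronic peak lay in a later intron. The median of 2629 such peaks was 82.9, 79.4 and 78.6, against 74.96, 66.5 and 53.6 for 2014 peaks in later introns only. First introns held 344 of the 566 intronic peaks of the most open 10% (60.8%), 55.7% of all intronic peaks and 49.9% of those of the least open 10%. The intron of aop (yan, FBgn0000097), the ETS repressor that opposes pnt, had 1406, 1511 and 1642. Its mean of 1520 was the highest in first introns, whereas later introns reached 5183, at the pnt peak.

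Among peaks that were not TSS peaks, density fell with distance of the center from the closest start. The median was 73.1 at up to 1000 bp, 68.8 at 1000 to 2000 bp, 67.9 at 2000 to 5000 bp, 64.2 at 5000 to 10000 bp, 58.6 at 10000 to 20000 bp and 52.9 beyond 20000 bp. The decline was seen in each library and was steepest in replicate 3, with 63.6 in the closest and 36.1 in the farthest band, against 80.1 and 65.8 in replicate 1. Of the 884 peaks beyond 20000 bp, 29.0% were in the least open 10% and 6.33% in the most open 10%.

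Promoters shared by neighboring genes had higher medians but fewer very open peaks. A peak at the start of 1 protein-coding gene had a median density of 80.9 (n = 5142), one at starts of 2 genes had 90.7 (n = 2044), and one at starts of 3 or more had 94.5 (n = 137). The share in the most open 10% was 11.9%, 7.97% and 5.11%. The highest among shared promoters was that of Tip60, a histone acetyltransferase, and tyf, with 897, 933 and 1071.

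Peaks in coding exons stood apart in the middle of the ranking and in their spread. They were 1670 peaks, of which 1.02% were in the most open and 3.05% in the least open 10%, and they made up 19.2% of the peaks in step 7 of 10 of the ranking. Their median was 82.9, 66.5 and 41.8 in replicates 1, 2 and 3, with replicate 3 lowest. Their median CV of 34.2% was above that of every other annotation class, and their median GC content was 53.7%, against 43.7% for all peaks. The part of GC content in this spread was not tested. The highest was in CG5346, with 402, 431 and 523, followed by ced-6, an adaptor for engulfment of dying cells, with 349, 359.5 and 415.

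UTR peaks were few and mostly modest. The 89 peaks in 5' UTRs away from a start had medians of 78.3, 72.1 and 64.4, and the highest lay in dos, an adaptor of receptor tyrosine kinases, with 628, 627 and 842. The 360 peaks in 3' UTRs had medians of 66.1, 63.01 and 55.8, and 17.2% were in the least open 10%. The highest, shared by mei-38 and rush, had 710.0, 689.7 and 780.3.

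**Figure D3:**
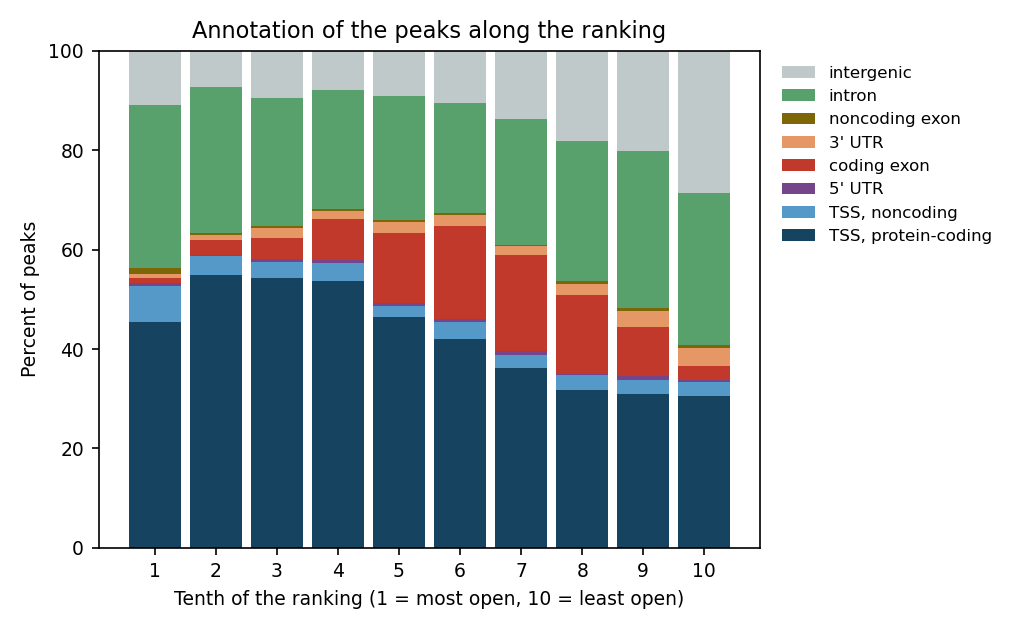
Share in percent of each annotation class in each step of 10% of the ranking, from the most open step at the left to the least open at the right, for the mean density of the 3 libraries at 25 °C. Peaks at a TSS make up 52.7% of the first and 33.3% of the last step, intergenic peaks 10.83% and 28.5%, and coding exons reach 19.2% in step 7.

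Highly open peaks lay close together at a few loci. In windows of 21 neighboring peaks the median density was 71.3 over 17041 windows, and the 95th percentile was 131.1. At chr3L:606886-659592, around CR43334, the window median was 777, 697 and 664 in replicates 1, 2 and 3 (713 on the mean densities), 9.86-fold above the median of all peaks, and 20 of its 21 peaks were in the most open 10%. The window at pnt had 507, 587 and 658, and that within luna had 596, 539 and 505. Those at ap, RhoGAP18B and kay had 483, 437 and 362, then 329, 376 and 394, then 329, 355 and 369. These 6 windows were chosen by their medians, which are given as a description.

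These 6 windows held 126 peaks, 0.734% of all, with 7 of the most open 10 and 34 of the most open 100 peaks. They took 4.51%, 4.82% and 4.93% of the counts of replicates 1, 2 and 3. Because the windows were chosen by the same densities, high shares were built into the choice. Counted as unbroken stretches of the most open 10%, CR43334 and its neighbors had 22 peaks in a row over 53.4 kb (chr3L:608013-661373). The ap locus had 20, luna 18, pnt 17, kay 15, RhoGAP18B 13 and CG31145 12. In all, 1202 such stretches were found. Loci with more DNA copies would also show as stretches, and their copy number was not tested.

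At the bantam locus high densities reached beyond the transcript itself, and DNA copy number there was not tested. The 7 peaks in CR43334 or within 2000 bp upstream had a median of 1562, 2039 and 1827, all 7 were in the most open 10%, and they took 0.661%, 0.785% and 0.806% of the counts. Upstream, the start of the noncoding RNA CR42719, 11.7 kb from the start of CR43334, had 1127, 1271 and 1096. Downstream, the start shared by MED30, a Mediator subunit, and Rev1, a DNA polymerase of translesion synthesis, had 532, 538 and 507.5.

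In pnt, 18 of 23 peaks were in the most open 10%, in kay (Fos, FBgn0001297) 15 of 15, in RhoGAP18B 15 of 17, in ush (u-shaped, FBgn0003963) 20 of 24 and in tara 10 of 17. Among 226 protein-coding genes with 10 or more peaks the median share was 9.09%, and 72 had none. kay, the Fos subunit of the AP-1 factor, had 737, 932 and 875 at its start, and the median of its 15 peaks was 329, 335 and 369. ush, the FOG-type cofactor of GATA factors in hemocytes, had 1272, 1331 and 1555 at a start and 1259, 1453 and 1498 in an intron, which did not differ beyond their spread. All 9 peaks of ap and all 6 of HmgZ were in the most open 10%.

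Genes with many peaks differed in how open these were. luna had the most, 45 in 138 kb, of which 19 were in the most open 10%. Eip75B, a nuclear receptor of the ecdysone response, had 41 with 7, and bun, a leucine zipper factor, had 41 with 3. SKIP had 32 peaks in 162 kb and none in the most open 10%, with medians of 76.0, 64.0 and 36.5 in replicates 1, 2 and 3 and a highest mean density of 104.1. In Myo81F, 38 peaks had medians of 57.6, 51.6 and 31.0, below those of all peaks in each library, and 3 were in the most open 10%, at places 5, 71 and 91.

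**Figure D4:**
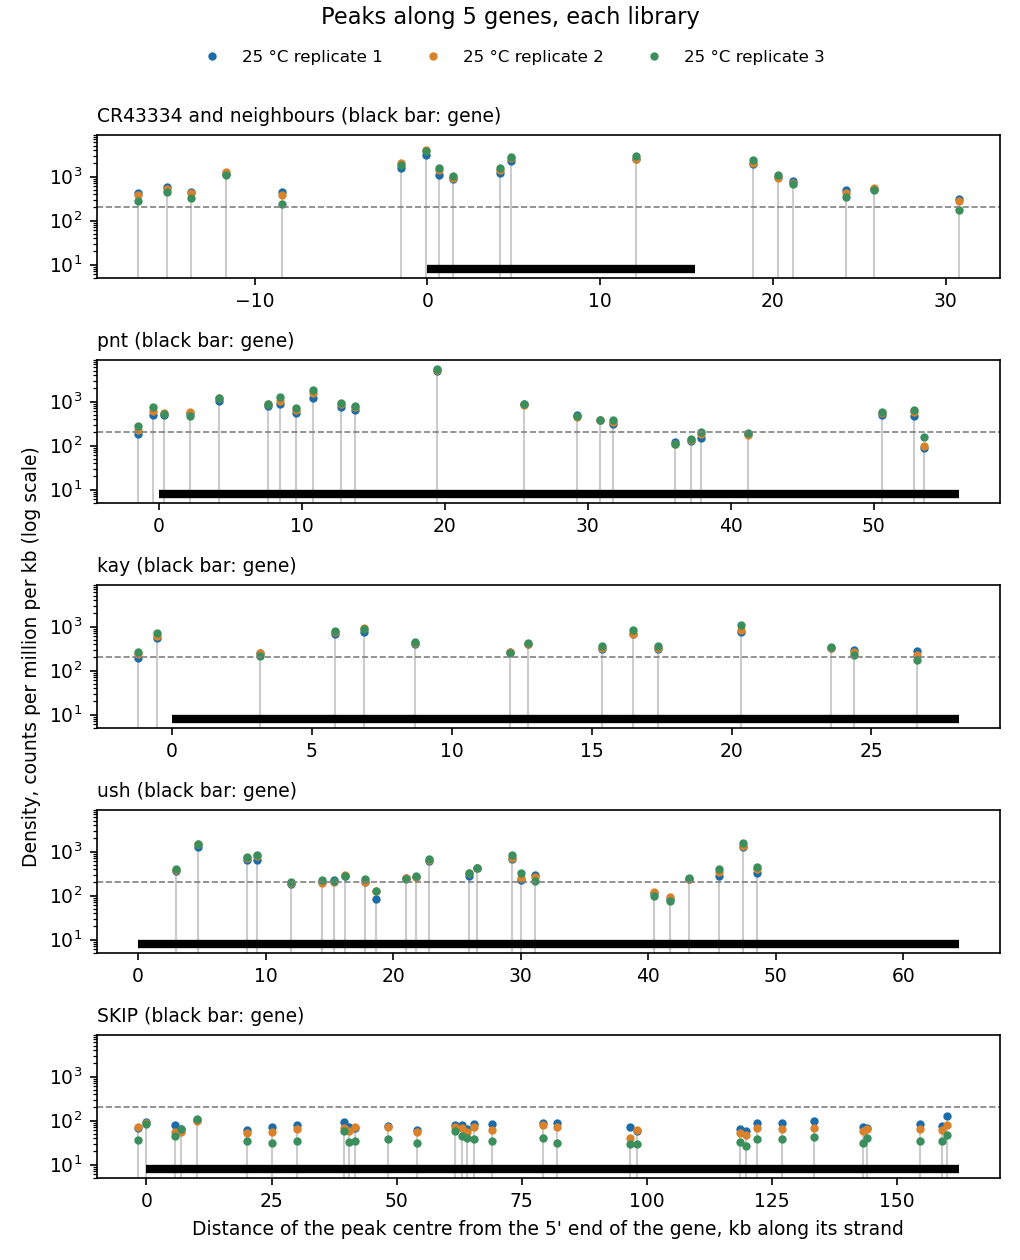
Density of single peaks in CPM per kb (log axis) along CR43334 with its neighbors, pnt, kay, ush and SKIP, against distance in kb from the 5' end of the gene, with a dot for each of the 3 libraries at 25 °C, a black bar for the gene and a dashed line at the limit of the most open 10% (207.0). All 15 kay peaks have mean densities above the line, 18 of 23 do so in pnt and 20 of 24 in ush, while the 32 SKIP peaks stay below it, with replicate 3 lowest at most of them.

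Single peaks were less open than those in clusters. With neighbors under 2000 bp apart joined, 9646 runs resulted, of which 5549 were single peaks. Peaks in runs of 5 or more, 13.6% of all, had a median density of 98.6 and 16.4% of them were in the most open 10%, against 62.9 and 6.97% for single peaks. The run with the most peaks, 15 in CG31145, had 13 in the most open 10%, and the next 3 runs, with 14 peaks each, had 3, 0 and 0.

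The label of a hemocyte-like line was compared with marker genes. Of 8 regulators of hemocytes, 7 had a peak at a start, with a median of the highest TSS peaks of 259.0, 220.0 and 275.5, and 4 were in the most open 10%. Over all 13968 protein-coding genes, 53.8% had a peak at a start, with a median of 89.3, 90.6 and 93.6, and 6.10% had one in the most open 10%. Among the genes with a TSS peak this share was 11.3%. ush and zfh1, a zinc finger homeodomain factor, stood highest, zfh1 with 882, 1002 and 959.8 in replicates 1, 2 and 3. pnr, a GATA factor, had 433, 461 and 479, and srp, the GATA factor that starts blood development, had 259.0, 220.0 and 275.5. Pvr, the receptor for PDGF and VEGF-like ligands, had 104.7, 115.5 and 168.9, lz, the Runx factor of crystal cells, had 83.8, 81.4 and 100.9, and gcm2, which acts in plasmatocytes, had 43.3, 50.3 and 38.4, the lowest of the list. Its paralog gcm had no peak.

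Of 14 effector genes of hemocytes, 11 had a TSS peak, with a median of 136, 143 and 139. In the most open 10% were 4, beside 11.3% of all protein-coding genes with a TSS peak. SPARC, a collagen-binding matrix protein, had 598, 649 and 784, Ppn, the matrix protein papilin, had 564, 514 and 594, and LanA, a laminin subunit, had 230.4, 288.1 and 378.5. Pxn, peroxidasin, had 172, 218 and 238. LanB1, another laminin subunit, had 66.4, 69.5 and 94.4, vkg, a collagen IV chain, had 76.5, 85.7 and 78.3, and Sr-CI, a scavenger receptor, had 72.8, 72.1 and 82.1. The phagocytosis receptors crq and drpr had 149, 145 and 139 and 136, 136 and 139, and eater had 62.8, 64.8 and 64.6. The hemocyte markers Hml, NimC1 and He were without a peak at a start. Hml had only a peak in its 3' UTR, with 28.9, 34.1 and 37.0, and the other two had none.

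Marker lists of other cell types varied. A TSS peak was found for 2 of 10 neural, 5 of 9 muscle, 4 of 7 germline, 1 of 5 testis, 1 of 8 fat body and gut, and 3 of 5 epithelial genes, and for 2 of 4 of crystal cells and lamellocytes, beside the 53.8% of all protein-coding genes. Their medians on the mean densities were 195, 49.0, 54.0, 65.7, 88.8, 80.1 and 97.1. The neural median lay above that of hemocyte effectors and rests on elav, an RNA-binding protein, which had 279, 299 and 340, and on repo with 94.8, 83.0 and 76.4. Starts of the synaptic genes nSyb, Syt1 and brp had no peak. Among muscle genes, Mef2 had 191, 193.5 and 212, while Mhc, Act88F and up had none at a start.

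**Figure D5:**
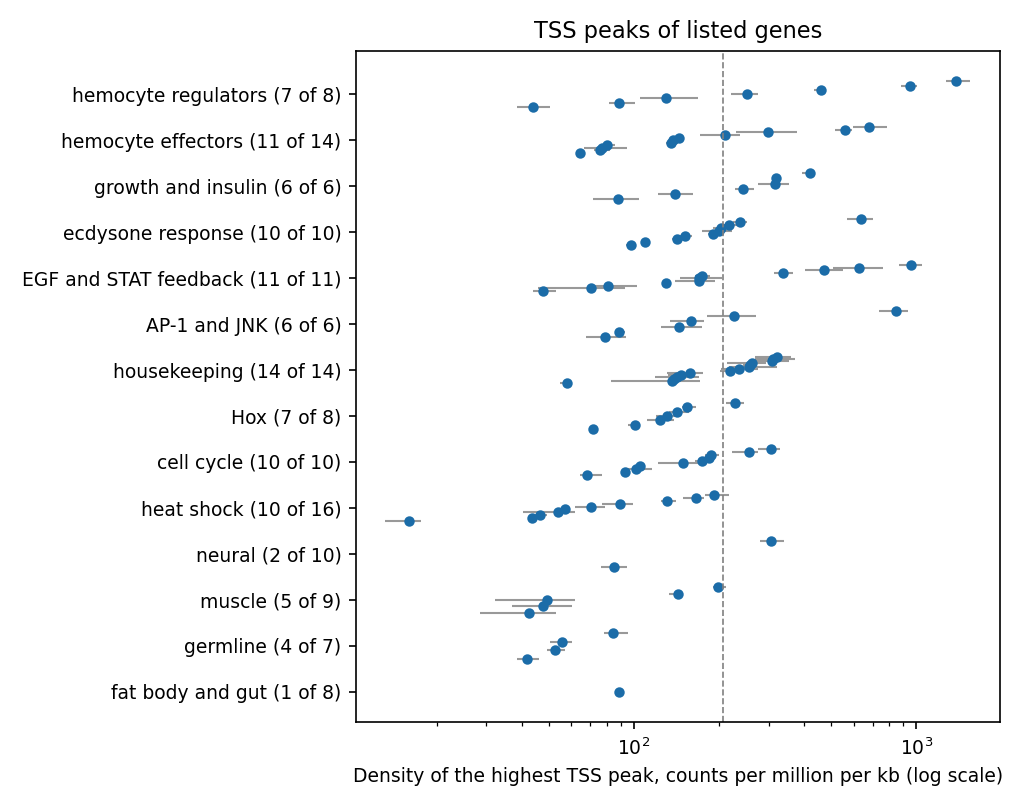
Density of the highest TSS peak of each listed gene that had one, in CPM per kb (log axis), as the mean of the 3 libraries at 25 °C (dot) with their range (line); the label gives how many listed genes had such a peak, and the dashed line is the limit of the most open 10% (207.0). Regulators of hemocytes reach 1386 at ush, whereas 9 of the 10 heat shock starts lie between 43.5 and 192 and that of Hsp70Bb at 15.9.

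Genes of the EGF receptor and STAT pathways, with their targets and feedback regulators, ranged from the most open to below the median. All 11 listed genes had a TSS peak, with a median of 145, 174 and 194. In the most open 10% were 4, beside 11.3% of all protein-coding genes with a TSS peak. aop had 868, 965 and 1047, pnt 507, 614 and 762, sty (sprouty), an inhibitor of receptor tyrosine kinases, 404, 549 and 464, and rho (rhomboid), the protease that releases EGF ligands, 332, 314 and 365. aos (argos), a secreted inhibitor and target of the EGF receptor, had 70.9, 70.1 and 102.2. The receptor gene Egfr itself had 92.6, 73.8 and 45.6, and hop, the JAK kinase, had 46.0, 44.0 and 52.8. Stat92E and its target Socs36E had 145, 157 and 205.5 and 139, 174 and 194. The range of hop lay below those of aop, pnt, sty and rho in every library.

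All 10 listed genes of the ecdysone response, the steroid signal of molting, had a TSS peak, with a median of 182, 194 and 190. In the most open 10% were 3, beside 11.3% of all protein-coding genes with a TSS peak. br (broad), a BTB zinc finger factor, was highest with 567, 701 and 638, and EcR, the receptor, had 205.1, 234.2 and 213.2. Of the 6 genes of AP-1 and JNK signaling, kay was highest and Jra (Jun) had 85.9, 87.3 and 93.1. All 6 growth and insulin genes had a TSS peak and 4 were in the most open 10%, with Akt at 394, 438 and 432 and InR at 274.5, 319.9 and 353.3.

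Of 8 Hox genes, 7 had a TSS peak, with a median of 141, 120.1 and 129.8, and Scr was highest with 230.1, 211.0 and 244.9. Ubx had a peak only in an intron, with 248.6, 228.9 and 262.6. Early patterning genes were split, with en at 288, 259 and 288 and Kr at 43.0, 47.3 and 42.9, while bcd, hb, gt and ftz had no peak at a start.

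Housekeeping genes were open without being extreme. All 14 had a TSS peak, with a median of 208, 228 and 236. In the most open 10% were 8, beside 11.3% of all protein-coding genes with a TSS peak. The highest was betaTub56D with 268, 334 and 359, and Gapdh2 was lowest with 59.4, 54.6 and 59.3. Of 92 genes for cytoplasmic ribosomal proteins, which are among the most expressed in any cell, 82 (89.1%) had a TSS peak, but their median was 80.6, 86.7 and 89.9, and 3 were in the most open 10%. The corresponding figures were 86.3% and 74.6, 77.4 and 76.7 for 73 mitochondrial ribosomal proteins, and 86.4% and 95.5, 99.2 and 97.6 for 44 translation initiation factors.

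Several gene families used in other tissues mostly lacked promoter peaks, and 1 did not. A TSS peak was found for 13.6% of 59 odorant receptor genes, 11.7% of 60 gustatory receptor genes, 13.3% of 60 ionotropic receptor genes and 14.3% of 119 cuticular protein genes. Of the 25 Osiris genes, 1 had one, but of 16 Jonah serine protease genes, a gut family, 8 had one. These 8 genes were an exception in having peaks, not in how open the peaks were. The medians of their highest TSS peaks were 75.6, 68.8 and 37.4 in replicate order. Over all protein-coding genes these medians were 89.3, 90.6 and 93.6. The most open Jonah peak had a mean density of 88.1, and whether these peaks mark promoters was not tested. Over all protein-coding genes, 4592 (32.9%) had no peak in the gene or within 2000 bp upstream.

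Heat shock genes, which carry a paused polymerase before induction, ranged from the upper part of the ranking to the floor. Of 16, 10 had a TSS peak, with a median of 64.5, 70.1 and 60.6, and none was in the most open 10%. Hsc70-4, the constitutive chaperone, had 179, 181 and 216, and Hsp83, the HSP90 chaperone, had 149, 177 and 172. The small heat shock genes Hsp22, Hsp26 and Hsp27 had 45.7, 44.0 and 49.1, then 44.2, 42.0 and 44.3, then 40.5, 61.5 and 59.3. Of the Hsp70 copies, Hsp70Ba had 69.8, 78.7 and 62.0, Hsp70Bb had 17.1, 17.5 and 13.1, and Hsp70Aa, Hsp70Ab, Hsp70Bbb and Hsp70Bc had no peak. The Hsp70 copies are near-identical, and only uniquely mapped reads were counted, so their values are uncertain.

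Among genes for chromatin proteins, Trl had 259.9, 283 and 311 at its start, and su(Hw), an insulator protein, had 39.2, 39.5 and 41.5. Of the genes of dosage compensation, roX1, a noncoding RNA of the complex that acts on the X chromosome of males, had 279, 249.7 and 194.7 and msl-2, its protein subunit made only in males, had 69.4, 60.8 and 65.4. Sxl, the switch gene of female development, had 57.9, 76.1 and 90.4 at its highest start. In flam, the transcript of a piRNA cluster that silences retrotransposons, a peak ranked 45 with 1002, 1036 and 1206.

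The medians of X and chromosome 4 did not differ from those of the large autosomal arms in the same direction in every library. On X the median was 71.9, 72.1 and 71.6 in replicates 1, 2 and 3 over 2615 peaks, against 81.4, 74.1 and 64.9 over 14420 peaks on the large autosomal arms. The ratio was 0.884, 0.973 and 1.10, so its direction differed between libraries (0.982 on the mean densities; 2-sided exact permutation over libraries, p = 0.75). It became 1.06 with only the 12883 peaks of higher mean count and 1.04 without replicate 1. Of the X peaks, 17.5% were in the least open 10%, against 8.54% of the autosomal ones.

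On chromosome 4, a small and largely heterochromatic chromosome, the median was 60.3, 69.0 and 66.8 over 126 peaks. The ratio to the large autosomal arms was 0.742, 0.931 and 1.03 (p = 0.5 by the same exact permutation test), and it was 1.03 on the mean densities after a loess correction for GC content, which has a median of 35.8% on this chromosome. Its most open peak, in zfh2, a zinc finger homeodomain factor, had 463.5, 522 and 524. Of the chromosome 4 peaks, 17.5% were in the least open 10%. Chromosome Y had 14 peaks, of which 7 were in the least open 10%. The Y medians were 67.5, 53.1 and 30.0 in replicates 1, 2 and 3. The most open peaks on the arms 2L, 2R, 3L and 3R were those in aop, luna, CR43334 and pnt.

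Of the 10 least open peaks, 9 lay in introns or between genes, and 2 of these were on chromosome Y. The lowest of all was in an intron of l(3)80Fg at chr3L:25903371-25903871, with 9.14, 5.95 and 7.78 in replicates 1, 2 and 3. Next stood an intron of Ppr-Y, a protein phosphatase gene of the Y chromosome, with 12.8, 8.93 and 3.76. Intergenic sites 57822 bp from mRpS5 and 49441 bp from scro followed, with 7.92, 11.2 and 6.71 and with 12.8, 10.9 and 4.56. The only TSS peak among the lowest 10 was that shared by His3 and His4 in the histone gene cluster, with 13.4, 12.6 and 13.7. The histone genes are repeated in tandem and only uniquely mapped reads were counted, so this value is uncertain. Each of these 10 peaks held at most 55 counts in a library.

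GC content differed between the ends of the ranking but did not follow it step by step, and its highest median, 46.3%, was in step 7 of 10. The median GC content of the most open 10% was 45.1%, and that of the least open 10% was 40.1%. The difference was 7.39, 4.79 and -1.60 percentage points when replicates 1, 2 and 3 were ranked alone, so replicate 3 went the other way (4.99 points on the mean densities; 2-sided exact permutation over libraries, p = 0.5).

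Over the 15999 peaks of the standard width of 500 bp, GAGAG on either strand was found in 66.1% of the most open 10%, 53.8% of all and 48.0% of the least open 10%. It was 57.7% in the 97 peaks of this width among the most open 100, below the share in the most open 10%. The share in the most open 10% was 65.5%, 66.8% and 65.7% with replicates 1, 2 and 3 ranked alone. At a TSS the shares were 71.9% in the most open 10% and 48.3% in the least open 10%, and away from starts they were 59.6% and 47.8%. In windows of the same length centered on every annotated start, 22910 in all, 46.2% held the site. Peaks with 7 or more GAGAG had a median of 109.5, 117.1 and 119.8, those with none 77.4, 70.6 and 62.0, and 23.6% against 7.70% were in the most open 10%. At starts the same steps gave 31.6% against 7.35%, and away from starts 14.8% against 7.99%.

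Other sites were less uneven in percentage points, though not always in proportion. The GATA site TGATAAG stood in 12.9% of the most open 10%, 10.4% of all and 10.2% of the least open 10%, and the AP-1 site TGANTCA in 17.5%, 15.2% and 15.5%. The GATA share was 15.8% among the most open peaks away from starts and 9.60% among the least open. At starts it went the other way, with 10.3% and 11.4%. The DREF site TATCGATA, found at promoters of housekeeping genes, was rarer in the most open 10%, with 2.74% against 4.83% of all peaks. The Zelda site CAGGTAG stood in 1.25% of the most open 10%, 2.43% of all and 1.38% of the least open 10%. TATAAA stood in 38.5% of the most open 10%, 40.8% of all and 49.6% of the least open 10%. These shares describe letters in peaks, and binding was not measured.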

How the data were processed

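ATAC-Seq was done on S2R+ cells in 9 libraries, of which the 3 at 25 °C were used. The table of counts deposited by the authors holds whole-number read counts per consensus peak, not normalized. The authors trimmed reads with Trimmomatic (version 0.38), mapped them to dm6 with Bowtie2, removed unmapped, non-unique, mitochondrial and duplicate reads, shifted ends for Tn5, called peaks per library with MACS2 and counted with DiffBind, re-centering peaks on their summits. Peaks in 2 or more of the 9 libraries made the consensus, so weak sites of a single library are not in it, and an open site of 25 °C alone still had to pass in 2 libraries. A second deposited table holds a signal, the counts divided by the authors' size factors. It was used as an alternative only.

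Counts were divided by the library's total in peaks and by peak length in kb (Python 3.11.15). Libraries held 6046528 to 7456082 counts. Peaks were annotated as TSS peaks where they overlapped the 500 bp on either side of a start, and the others by their center in the order coding exon, 5' UTR, 3' UTR, noncoding exon, intron and intergenic, with Ensembl release 115 gene models of the same genome release. Peak starts were taken as counted from 1. Gene peaks included 2000 bp upstream. Motifs were counted with overlaps allowed on both strands. The calculation was run on simulated data with counting error only, in which all peaks but the raised ones had the same density. Of 200 raised peaks, 200 were among the 200 highest densities, which checks the arithmetic and not the stability of the real ranking. Summaries were compared over libraries by an exact sign-flip permutation test (2-sided, at least 0.25). No test was run across peaks, and no temperatures were compared.

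Named were the 10 most and least open peaks, the 5 highest per class, the 3 highest per arm, the 10 genes with most peaks, the densest runs, the 5 peaks with the highest CV among the most open 10%, and listed genes. The loci of the 21-peak windows, Tip60, flam and 7SKa were among others chosen after their values were seen. Some named sites are not reported here. Members and lists were chosen with earlier results of these data known. Alternatives were TMM factors (edgeR 4.0.16, R 4.3.3), size factors, the second table, the median library, no length division, standard widths only, only the 12883 peaks with a mean count of 180.3 or more, loess for GC (statsmodels 0.14.6), a 250 bp window and each replicate left out. Leaving out X beyond 23 Mb and the windows of 21 peaks were added after seeing the data.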

Additional observations from a re-analysis of the deposited data

How the results depend on the processing

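Of 87 values of the 7 summary results under the alternatives, 82 stayed within 1 SD of the libraries without a change of direction. Direction was judged for the ratios and GC differences. Another 3, all ratios, changed direction but stayed within 1 SD, and 2 moved by more than 1 SD. The share of the most open 10% at a TSS moved to 49.6% when only the 12883 peaks of higher mean count were kept and to 46.5% with a window of 250 bp, as fewer peaks count as TSS peaks by construction there. The TSS share of all those 12883 peaks was not computed. The 49.6% can therefore not be set against the 46.1% of all peaks, and whether promoters stay overrepresented after this filter was not tested. The ratio of X to the autosomal arms turned to 1.06 with those 12883 peaks and to 1.04 without replicate 1, and that of chromosome 4 turned to 1.03 after the GC correction, and the cause was not tested. With each replicate left out in turn, the ratio of TSS to other peaks was 1.17 to 1.45, the TSS share 51.7% to 52.9%, the share of counts in the most open 10% 32.7% to 35.6%, the ratio of X to the autosomal arms 0.926 to 1.04, that of chromosome 4 0.817 to 0.989, that of intronic to intergenic peaks 1.18 to 1.37 and the GC difference 2.40 to 6.59 points. The GC difference was 1.10 points with those 12883 peaks and 2.40 points after the GC correction, each within 1 SD of the libraries. No paired analysis was possible because only libraries at 25 °C were used and no groups were compared. With 3 libraries the test cannot fall below 0.25, so it says nothing about stability. At the low end of the ranking the libraries shared few peaks, and neither the part of depth in this nor DNA copy number was tested.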
